A study of Mus musculus with 2 samples.

Results

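The Jak, Stat and Socs signalling genes described here are the kinases Jak1 and Jak3, the transcription factors Stat3, Stat4, Stat5a and Stat5b, and the inhibitors Socs1, Socs3 and Cish. They are 9 of the 20794 genes of the RNA matrix, were listed by name, and all 9 were found. Each was read in the raw counts over all cells and in T cell families defined by their receptor. JAK kinases sit on the inner tails of cytokine receptors, phosphorylate STAT transcription factors when a cytokine binds, and are switched off by SOCS proteins, several of which are themselves induced by STATs. In CD8 T cells the JAK1 and JAK3 pair serves receptors that share the common gamma chain, STAT5A and STAT5B carry their survival and growth signals, STAT3 and STAT4 act downstream of inflammatory cytokines, and CIS, SOCS1 and SOCS3 are feedback inhibitors.

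The cells were mouse T cells that carry a Cas9 transgene and were infected after activation with a retrovirus that targets Bcor and Zc3h12a and delivers 14g2a, an engineered receptor (CAR) that lets a T cell recognise the surface lipid GD2. These cells, named GD2TIF, were given to C57BL/6 mice with an intact immune system, and CD8+Thy1.1+ cells were sorted from the spleen 2 months after transfer. The sorted cells gave 1 library of single-cell RNA and 1 of T cell receptors, so all cells come from the same targeting, the same CAR and the same tissue, and no unedited or earlier cells are compared here. The sources used here do not give the number of mice, and a receptor family and the mouse it grew in cannot be told apart.

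After filtering, 10338 cells remained with 22280465 unique molecular identifiers (UMIs, counted RNA molecules). A cell held a median of 1922 UMIs, and the shallowest and deepest cells held 500 and 17222. Levels are given as summed UMIs per 1000000 UMIs (CPM) with exact 95% Poisson intervals. Cells are not replicates, so no test was run and every interval covers counting error only. Transcripts of T cells were general, with a UMI of Cd3e in 86.2% of cells and of Trbc2 in 93.0%, while Cd8a was seen in 28.6% and Cd8b1 in 45.3%. Of 10 B cell markers, 146 cells had UMIs of at least 2 and another 1737 cells had UMIs of exactly 1. Bcor stood at 171 CPM and Zc3h12a at 47.4 CPM, which does not check the edits, since small edits can leave the messenger RNA in place and no unedited cells were measured.

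Of the cells, 3879 carried exactly 1 productive T cell receptor beta chain (TRB) sequence, and cells with the same CDR3 nucleotide sequence, the stretch that joins the V, D and J segments, were taken as 1 family. Families of 50 cells or more numbered 12 and held 2614 cells in all or 67.4% of the single-TRB cells. They are numbered by size, with 882 cells in family 1 and 50 in family 12, and the next smaller family had 40. The CDR3 sequences of 4 families are shown because they define cells in which Socs1 (families 7 and 11), Socs3 (family 10) or Stat5a (family 3) was called. In each pair with a shared start the capitals mark the bases after it, 19 shared bases in families 3 and 7, which both use TRBV17, and 13 shared bases in families 10 and 11, which use TRBV12-1 and TRBV12-2.
Family 3: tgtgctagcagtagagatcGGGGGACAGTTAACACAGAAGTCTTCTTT
Family 7: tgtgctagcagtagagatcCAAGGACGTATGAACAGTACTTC
Family 10: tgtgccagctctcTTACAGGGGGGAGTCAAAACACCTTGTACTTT
Family 11: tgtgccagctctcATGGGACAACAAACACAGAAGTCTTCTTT

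Promoters of the 9 genes were read from RefSeq on the GRCm38.p6 build, as windows of 250 bases before to 50 after a transcription start. All 9 genes matched, with 12 windows. The letters TTCNNNGAA, the core that most STAT proteins bind, and a repeat of GAAA with any 2 bases between the copies, the core of the interferon-stimulated response element (ISRE), were searched on both strands. Among 32851 windows of this length 8.30% held TTCNNNGAA and 3.44% held the ISRE core. Of the 9 genes, the inhibitors Cish and Socs3 held the first, while Socs1 and Stat4 held the second, and no match was found in the windows of Jak1, Jak3, Stat3, Stat5a and Stat5b. The stretches around the matches in the inhibitors are shown because these genes vary between groups of cells below, with the matched letters in capitals, and a match is a description of letters and not a site shown to be bound.
Cish, chr9:107296654-107296683, plus strand: cagttTTCCTGGAAagTTCTTGGAAatctg
Socs3, chr11:117969487-117969546, minus strand: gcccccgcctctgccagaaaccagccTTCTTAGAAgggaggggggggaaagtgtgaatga
Socs1, chr16:10785587-10785646, minus strand: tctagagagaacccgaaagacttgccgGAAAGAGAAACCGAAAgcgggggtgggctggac
Counted from the start, the 2 matches of Cish began at base 1 and base 12, the match of Socs3 began at position -154, and the 2 matches of Socs1 overlapped. The annotated Socs3 gene spans 117966079 to 117970336, so its printed stretch and the start it is counted from lie inside the gene.

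Over all cells the kinase Jak1, which pairs with most cytokine receptors of T cells, stood at 912 CPM (900 to 925) and gave a UMI in 76.0% of cells. Jak3, the kinase bound to the common gamma chain, stood at 24.5 CPM (22.5 to 26.6) and gave a UMI in 4.60% of cells. How well the RNA of each gene was caught and counted was not measured, so these values are not an order of abundance between genes. The other kinases of the family were Jak2 with 71.3 CPM and Tyk2 with 45.6 CPM. The receptor chains that Jak1 and Jak3 bind gave many UMIs. Il2rb, the beta chain of the interleukin-2 and interleukin-15 receptors, stood at 614 CPM. Il2rg, the common gamma chain, stood at 576 CPM. Il2ra, the alpha chain that marks recently stimulated T cells, had 4 UMIs in the library.

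Among the transcription factors, Stat4 stood at 171 CPM (165 to 176) with a UMI in 26.1% of cells, and Stat3 at 150 CPM (145 to 156) with a UMI in 24.5%. Stat5b stood at 69.0 CPM (65.6 to 72.5) and Stat5a at 19.1 CPM (17.3 to 21.0), with UMIs in 12.6% and 3.67% of cells. Stat5a and Stat5b encode near-identical proteins and lie side by side on chromosome 11, with Stat3 next to them, and the sources used here do not give how reads that match more than 1 of them were counted. Their split is therefore uncertain. Of the factors outside the 9 genes, Stat6, which carries interleukin-4 signals, stood at 86.2 CPM and Stat2 at 26.8 CPM.

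The UMI counts of the inhibitors covered a wide range. Socs3, which binds receptor tails and the kinases on them, stood at 215 CPM (208 to 221) with a UMI in 30.5% of cells. Socs1, which blocks the active site of JAK kinases, stood at 99.9 CPM (95.8 to 104) with a UMI in 16.1%. Cish, the inhibitor known as a direct target of STAT5, had 50 UMIs in 42 of 10338 cells, or 2.24 CPM (1.67 to 2.96). Socs2, another gene known to be induced through STAT5, had 14 UMIs, or 0.628 CPM. Both were above the library's floor of 3 UMIs, 0.135 CPM, but sparse. Elob, a partner through which SOCS proteins recruit a ubiquitin ligase, stood at 542 CPM.

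Shares of cells depend on depth. When each cell was thinned to 1000 UMIs, leaving out 882 shallower cells, a UMI of Jak1 remained in 56.9% of cells, of Socs3 in 18.2%, of Stat4 in 14.8%, of Stat3 in 13.4% and of Socs1 in 8.67%. Thinned shares of the other 4 genes were 6.47% for Stat5b, 2.33% for Jak3, 1.73% for Stat5a and 0.222% for Cish. As a background for free RNA, 22 cells with at least 3 B cell markers (median 2134.5 UMIs against 1920.5 in other cells) gave a UMI of Socs3 in 13.6% and of Stat4 in 31.8%. Those cells also held T cell transcripts, with Cd3e at 344 CPM against 1474 CPM in the other cells, so they are a poor measure of free RNA alone. They may also make transcripts of the 9 genes themselves. For each of the 9 genes the share over all cells lay within the interval that 22 cells allow. These intervals are wide, 54.6% to 92.2% for Jak1, so the comparison cannot decide how much of any share is free RNA.

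Levels also moved with the depth of the cell, which bears on each comparison below. With cells split into 4 bins of nearly equal number from shallow to deep, Jak1 stood at 1022, 990, 931 and 831 CPM. Stat4 went the same way with 194, 178, 172 and 159 CPM. Socs3 was at 224, 241, 235 and 187 CPM, lower in the deepest bin than in the other three. Stat3 showed the opposite, with 146, 144, 141 and 160 CPM, and Socs1 kept between 93.5 and 105 CPM. The plot of levels by depth shows these slopes beside their counting intervals.

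**Figure D1:**
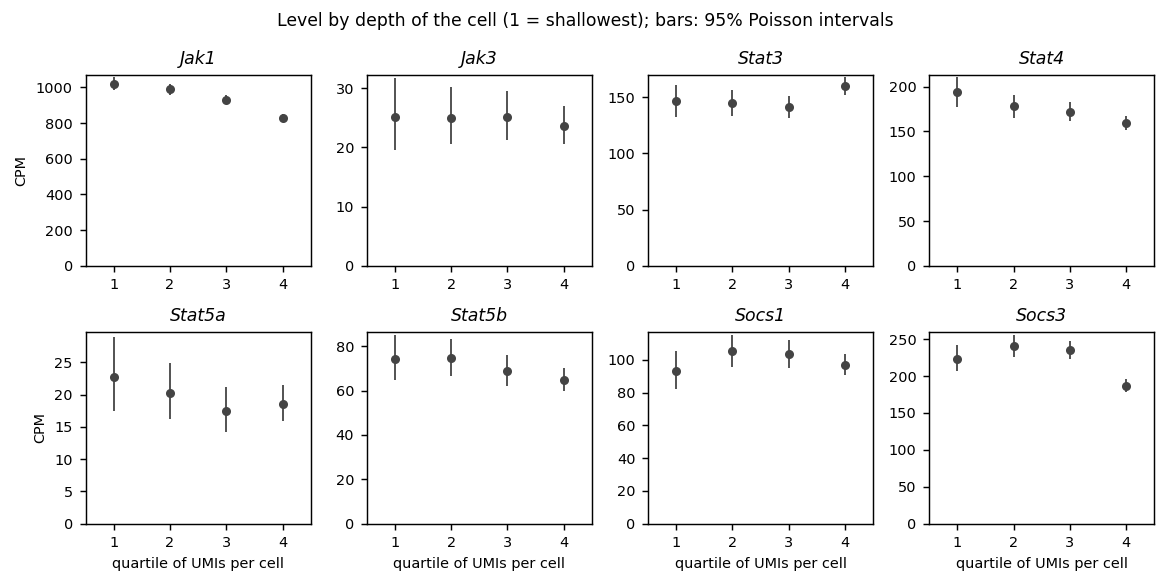
Level in CPM (vertical axes, from 0) against the bin of cells by UMIs per cell (horizontal axes, 1 is the shallowest), 1 panel for each of 8 genes, with 95% Poisson intervals as bars. Jak1 is at 1022 CPM in the shallowest bin and 831 CPM in the deepest, while Stat3 is highest, at 160 CPM, in the deepest.

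Each family was then set against all other single-TRB cells, called other cells where families are compared. A gene was called in a family when the ratio of levels was at least 1.5-fold either way, its exact interval left out 1, and both sides together held at least 50 UMIs. For the fold, a family with no UMI was counted as having 3, the floor. Of the 9 genes, 8 could be tested and Cish could not, with 16 UMIs in all single-TRB cells. Of 96 gene-family pairs 7 were called, 3 higher and 4 lower, which is 7.29%, against a background of 8.06% of 110532 gene-family pairs over all genes tested. The count is near the background and is not a result about the 9 genes as a group. Higher calls made up 4.09% of all pairs and lower calls 3.97%.

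**Figure D2:**
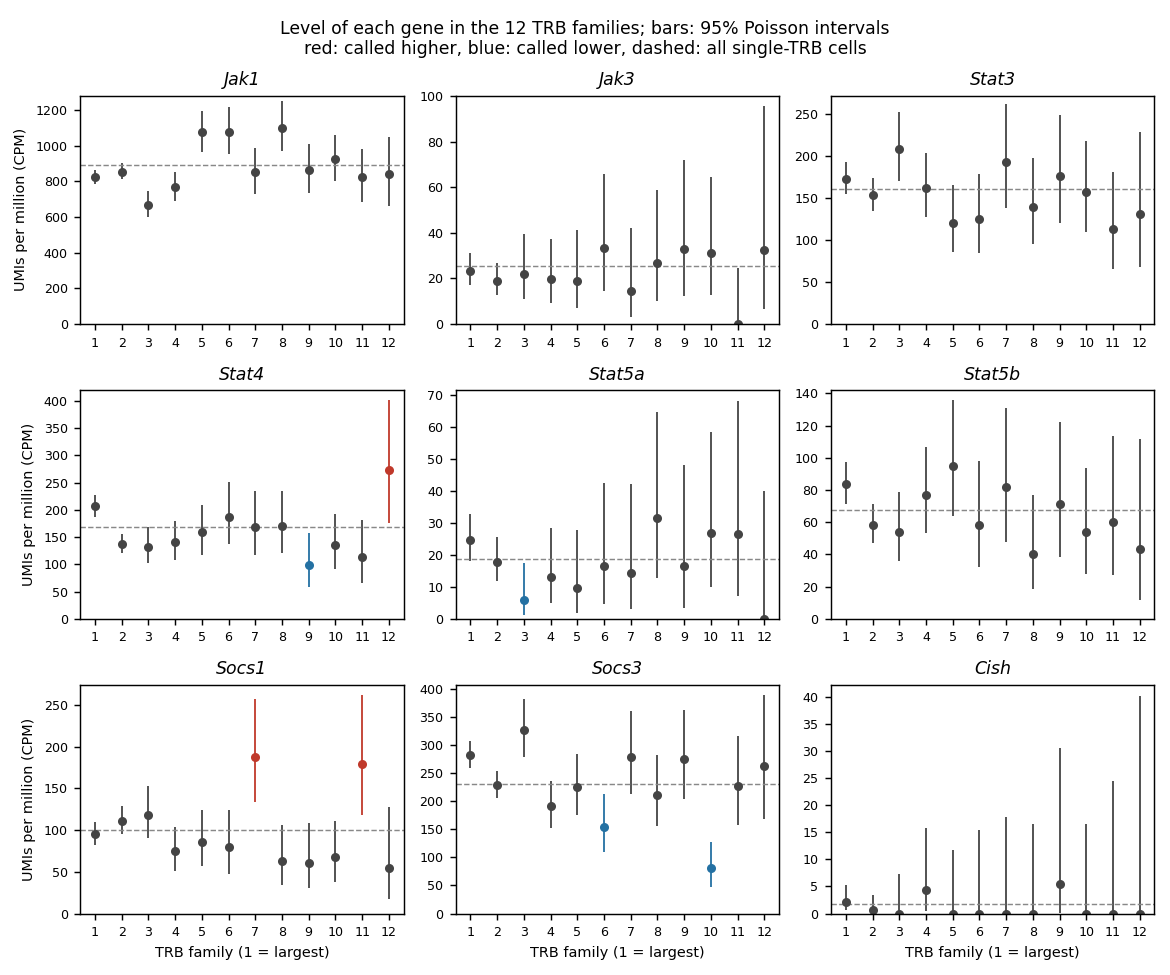
Level in CPM (vertical axes, from 0) of each of the 9 genes in the 12 receptor families (horizontal axes, 1 is the largest), with 95% Poisson intervals. Dashed lines give the level over all single-TRB cells, red marks a call higher (Socs1 in families 7 and 11, Stat4 in family 12) and blue a call lower (Socs3 in families 6 and 10, Stat4 in family 9, Stat5a in family 3).

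Neither Jak1 nor Jak3 was called in a family. Jak1 was lowest in family 3 with 669 CPM, had a median of 853 CPM and was highest in family 8 with 1101 CPM, a range of 1.65-fold (1.39 to 1.95). Families 5, 6 and 8 formed the upper end with 1074, 1079 and 1101 CPM, and family 3 stood below all others, but no family passed 1.5-fold. In the order of the 12 levels no neighbour pair was separated by its interval, while 28 of all 66 pairs were, more than for any other of the 9 genes. Jak1 also had the most UMIs of the 9 genes, 5259 over the families, which narrows its intervals, so this count does not measure spread. Jak3, with 135 UMIs over the 12 families, had a median of 22.6 CPM and was highest in family 6 with 33.3 CPM. Family 11 had no UMI of Jak3, where the floor of 3 UMIs is 19.97 CPM and the exact 95% upper limit 24.6 CPM. Its ratio had an upper bound of 0.960, but at the floor it did not pass 1.5-fold, so it was not called.

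Summed over their cells, the large families held less Jak3 than the small ones. The 12 families together stood at 21.9 CPM and the 1265 single-TRB cells of smaller families at 33.4 CPM, a ratio of 0.656 (0.498 to 0.868). This does not hold for each large family. Families 1 and 2, the largest, stood at 23.2 and 19.0 CPM. Families 6, 9, 10 and 12 stood at 33.3, 33.0, 31.4 and 32.7 CPM, each from at most 8 UMIs. Jak3 was the only one of the 9 genes called between the summed large families and the others. There 5.33% of genes were called either way and 2.44% lower. Jak1 was at 854 CPM in the large families and 979 CPM in the others (0.872, 0.832 to 0.914), and Socs3 at 245 CPM in the large families and 197 CPM in the others (1.24, 1.12 to 1.37). Median depth was 2160 UMIs in the large families and 1873 in the others, and its part in these ratios was not tested.

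Stat3 was lowest in family 11 with 113 CPM, with a median of 155 CPM, and highest in family 3 with 208 CPM, and was not called in any family. Stat4, the factor activated by interleukin-12, had its lowest level of 99.0 CPM in family 9, a median of 149 CPM and its highest level of 272 CPM in family 12. The range of Stat4 was 2.75-fold over the 12 families, against 1.84-fold for Stat3, but 1.56-fold over the families of 100 or more cells, against 1.73-fold for Stat3 and 1.61-fold for Jak1. Families 9 and 12 are below that size, so the wider range of Stat4 rests on small families. Family 9 stood at 99.0 CPM against 171 CPM in other single-TRB cells (0.580, 0.343 to 0.920). Family 12 stood at 272 CPM against 168 CPM in other cells (1.62, 1.04 to 2.40), from 25 UMIs in 17 of its 50 cells. Without the 1 cell that held 4 of these UMIs the ratio was 1.39 (0.861 to 2.14), so this call was not made without that cell. Calls made up 6.22% of genes in family 9 and 4.19% in family 12.

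Family 12 was also the family with the highest summed B cell markers, 229 CPM, where the other families ranged between 33.3 and 180 CPM. Of those 229 CPM, 131 came from Cd22, and Cd79a, Ms4a1 and Pax5 had no UMI in family 12. Without Cd22 the markers summed to 98.0 CPM in family 12, the third highest of the 12 families, where the others ranged between 6.66 and 121 CPM. No cell of family 12 carried 2 B cell markers, so leaving out such cells could not change its level. The part of B cell transcripts in its Stat4 was not tested.

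The STAT5 genes were sparse in families. Stat5b was lowest in family 8 with 40.5 CPM, had a median of 59.1 CPM and was highest in family 5 with 95.04 CPM, with no call. Stat5a was called lower in family 3, with 6.01 CPM against 19.5 CPM in other single-TRB cells (0.308, 0.0628 to 0.916). That level came from 3 UMIs in a family of 200 cells and equals its floor. In family 3, 10% of genes were called. This was the family with the lowest Jak1 and the highest Stat3 and Socs3. It also had the highest summed cycling markers, 198 CPM, where the others ranged between 0 and 114 CPM, and their part in these levels was not tested. Family 12 had no UMI of Stat5a, where the floor of 3 UMIs is 32.7 CPM and the exact 95% upper limit 40.2 CPM.

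Socs1 was higher in 2 families, with the largest called excess among the 9 genes. Its lowest level was 54.5 CPM in family 12, its median 82.3 CPM and its highest 188 CPM in family 7, a range of 3.44-fold (1.36 to 11.2). Family 7 stood at 188 CPM against 98.4 CPM in other single-TRB cells (1.91, 1.35 to 2.63), and family 11 at 180 CPM against 99.1 CPM in other cells (1.81, 1.19 to 2.66). The other 10 families lay between 54.5 and 118 CPM, below both. The excess sat in few cells: 39 UMIs in 21 cells of family 7, with 8 UMIs in 1 cell, and 27 UMIs in 17 cells of family 11. Without the cell of most UMIs the ratios were 1.55 (1.05 to 2.22) in family 7 and 1.59 (1.003 to 2.40) in family 11. After thinning, 8.33% of cells in family 7 and 12.5% in family 11 had a UMI of Socs1, against 8.67% of all cells. The ratios were then 1.71 in family 7 and 1.63 in family 11, still past the fold but with intervals that held 1, so neither was called. Calls made up 6.50% of genes in family 7 and 6.33% in family 11.

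Socs3 was called lower in 2 families. Its lowest level was 80.7 CPM in family 10, its median 227 CPM and its highest 327 CPM in family 3, a range of 4.05-fold (2.48 to 7.002). The range was 2.12-fold over the families of 100 or more cells, which leaves out family 10, and 2.63-fold after thinning. Family 10 stood at 80.7 CPM against 234 CPM in other single-TRB cells (0.344, 0.204 to 0.545), with 18 UMIs in 12 of 77 cells. Family 6 stood at 154 CPM against 233 CPM in other cells (0.662, 0.465 to 0.916), and the remaining 10 families lay between 190 and 327 CPM. The gap between family 10 and family 6 was the only one between neighbours in the order of any of the 9 genes whose interval left out 1. After thinning the ratio of family 10 was 0.527 and still called, while that of family 6 was 0.682 and no longer called. Family 6 was also not called with TRB by amino acid sequence (0.693), without cells of 2 or more B cell markers (0.668) or without the largest family (0.706). Genes called in family 10 were 9.01% of those tested, and in family 6 they were 8%.

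Family 10 was also the deepest, with a median of 2622 UMIs a cell, and over all cells Socs3 was lowest in the deepest bin, at 187 CPM. Family 2, the next deepest with a median of 2529.5 UMIs, held Socs3 at 228 CPM. Family 10 had the lowest summed T cell markers, 9564 CPM against up to 15170 CPM in family 1. It had the highest sum over the list of receptor-stimulation markers, 417 CPM where the others ranged between 99.0 and 267 CPM. Il2, a gene of that list, went the other way, with no UMI in family 10. The part of depth and of these markers in the low Socs3 of family 10 was not tested. Of 9 STAT5-associated genes tested, 2 were called in family 10, both higher. Ccnd2, a cyclin gene, stood at 408 CPM in family 10 against 136 CPM in other single-TRB cells (2.99, 2.39 to 3.70), and Pim2, a kinase gene, at 408 CPM against 249 CPM in other cells (1.64, 1.31 to 2.02). Pim1, another kinase gene, stood at 17.9 CPM in family 10 against 42.6 CPM in other cells (0.421, 0.114 to 1.09) and was not called.

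The spread over families beyond counting error put these differences on 1 scale, as a coefficient of variation (CV). Its median was 18.3% over the 8 genes tested and 15.9% over 8516 genes. Socs1 had 26.0%, Stat5a 21.9%, Socs3 21.6%, Stat4 21.4%, Stat5b 15.2%, Jak1 12.4% and Stat3 10.0%, and for Jak3, with few UMIs, no spread beyond counting was seen. Among genes with a like number of UMIs Socs1 stood at percentile 87.0, Stat4 at 81.8 and Socs3 at 81.7, while Jak1 stood at 54.4 and Stat3 at 35.6. Socs1, Stat4 and Socs3 thus varied more than most genes of their level, and Stat3 less than most, which describes these 12 families only.

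**Figure D3:**
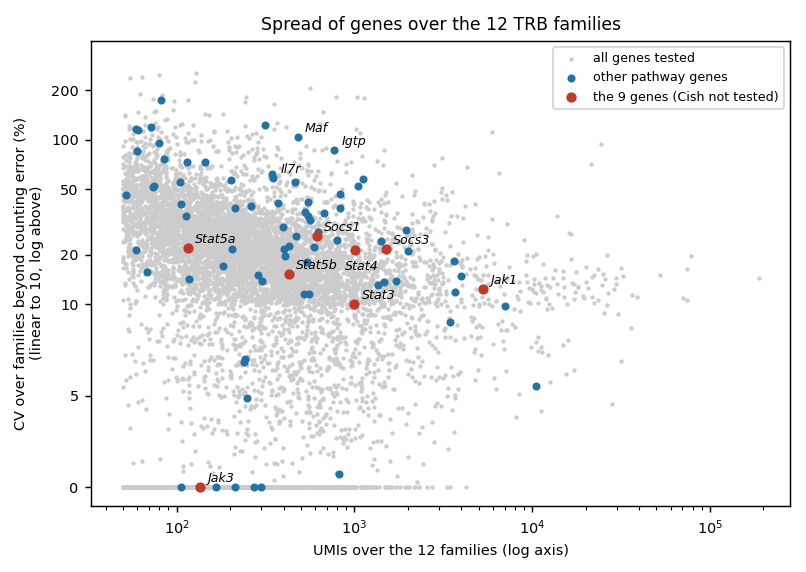
Coefficient of variation over the 12 families beyond counting error (vertical axis, percent, linear to 10 and log above) against UMIs over the families (horizontal axis, log). Grey points are all genes tested, blue points the other pathway genes and red points 8 of the 9 genes; Socs1 is at 26.0% and Stat3 at 10.0%, while Igtp is at 86.6%.

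Genes associated with interferon signalling were called in families more often than the background. Of 144 pairs of 12 such genes, 22 were called higher and 25 lower, or 32.6% against the background of 8.06%. This list, like the other pathway lists below, was chosen with earlier results of these data known, so such shares are descriptions only. Irf1, an interferon-induced factor, stood at 385 CPM in family 3 against 141 CPM in other cells (2.73, 2.33 to 3.18) and at 265 CPM in family 7 against 152 CPM in other cells (1.74, 1.30 to 2.28). Igtp, an interferon-induced GTPase, stood at 397 CPM in family 3 against 91.2 CPM in other cells (4.35, 3.70 to 5.09). Families were ordered alike by these 2 genes, with r of 0.820 between Irf1 and Igtp over the 12 families, which share 1 library. Families 3 and 7 held the highest levels of both. Irf1 and Igtp each held 1 TTCNNNGAA in a promoter window, and Igtp also held the ISRE core.

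Socs1 had r of 0.494 with Irf1 over the 12 families, Socs3 0.473, Stat3 0.574 and Jak1 -0.544. Family 7 was called higher in both Socs1 and Irf1. Family 3, the highest in Irf1, held Socs1 at 118 CPM against 99.4 CPM in other cells (1.19, 0.897 to 1.55), which was not called. Family 11, high in Socs1, held Irf1 at 140 CPM and was not called for it. Between the 9 genes themselves, the values furthest from 0 were -0.795 for Jak3 and Socs1, which rests on sparse counts of Jak3, and -0.616 for Jak1 and Stat3.

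**Figure D4:**
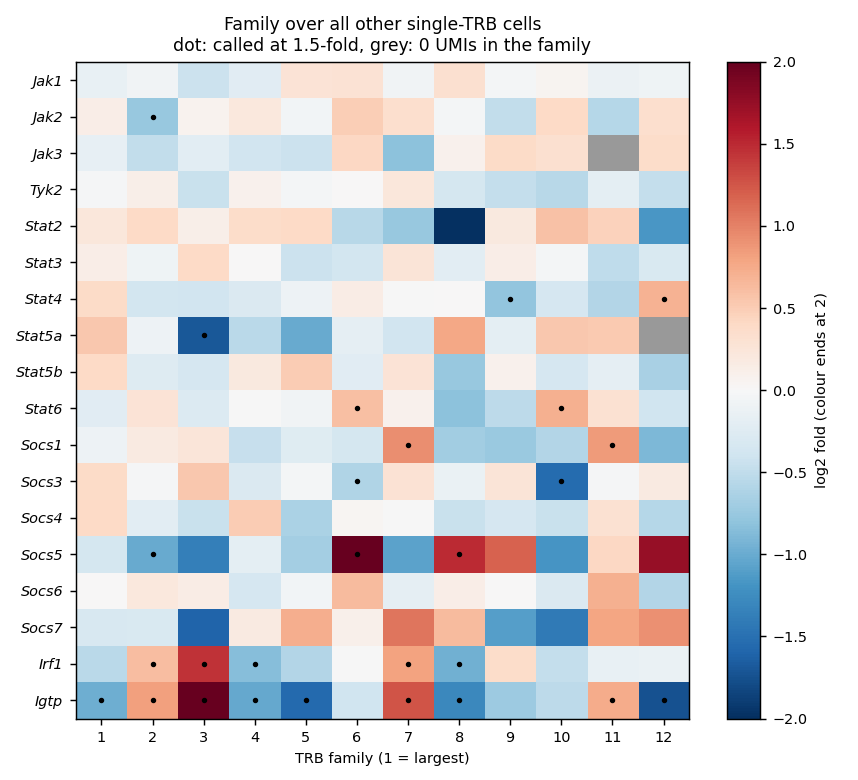
Log2 ratio of each of 12 families (horizontal axis, 1 is the largest) over all other single-TRB cells for 18 pathway genes (rows), where red is higher, blue is lower, the colour ends at 2, dots mark called pairs and grey marks 0 UMIs. Irf1 is called in 5 families, Jak1 and Stat3 in none.

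The other pathway lists varied by different amounts, against the same background of 8.06% of pairs. JAK kinases were called in 1 of 48 pairs, Jak2 lower in family 2 (44.1 CPM there against 74.5 CPM in other cells). The SOCS genes were called in 7 of 72 pairs, with Socs5 higher in family 6 at 41.7 CPM against 9.12 CPM in other cells, from 10 UMIs. The partners of SOCS proteins in the ubiquitin ligase were called in 2 of 48 pairs, and phosphatases and other inhibitors in 10 of 132.

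Receptors and cytokines stood higher on this scale. Receptor genes were called in 28 of 192 pairs, 10 higher and 18 lower. Il7r, the interleukin-7 receptor kept by resting and memory T cells, stood at 14.0 CPM in family 3 against 77.1 CPM in other cells (0.182, 0.0728 to 0.377) and at 166 CPM in family 11 against 71.9 CPM in other cells (2.31, 1.49 to 3.45). Ifngr1, a chain of the interferon gamma receptor, stood at 198 CPM in family 1 against 101 CPM in other cells (1.97, 1.74 to 2.24). Ifngr2, the other chain, stood at 24.5 CPM in family 2 against 3.77 CPM in other cells (6.50, 3.89 to 11.02). Cytokine genes were called in 9 of 48 pairs, among them Il21 in family 1 with 25.8 CPM against 2.19 CPM in other cells (11.8, 6.51 to 22.6).

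Lists of genes associated with single STAT factors also stood above the background. STAT3-associated genes were called in 19 of 60 pairs while Stat3 itself was called in none. Of the 19 calls 8 were of Maf, 7 of Prdm1 and 4 of Bcl3, and none of Batf or Junb. Maf, a factor tied to interleukin-10 and interleukin-21 production, stood at 183 CPM in family 1 against 31.2 CPM in other cells (5.87, 4.94 to 6.98). STAT5-associated genes were called in 17 of 108 pairs, and STAT4-associated genes in 10 of 60. Gzmb, the cytotoxic protease granzyme B, stood at 132 CPM in family 9 against 10.1 CPM in other cells (13.1, 7.96 to 20.7), the family in which Stat4 was lowest.

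For each gene the 3 genes of most like pattern over the 12 families were sought among 2089 genes with at least 500 UMIs, by r of log2(CPM + 10). Jak1 was most like Serpinb6b (r of 0.902), Lef1 (0.849), a factor of naive and memory T cells, and Cldnd1 (0.836). Stat3 was most like Ifng (0.888), the interferon gamma gene, Tmbim6 (0.880) and AC121965.1 (0.857). Without the 2 families farthest from the median of Stat3 these r were 0.892, 0.921 and 0.755. Stat4 was most like Hnrnpm (0.870), Cd22 (0.849) and Rbbp7 (0.845), where Cd22 is one of the B cell markers above. Without the 2 farthest families r lay between 0.721 and 0.806 for the genes of Jak1 and between 0.667 and 0.796 for those of Stat4.

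Socs1 was most like Usp48 (0.925), Polr2j (0.894) and Hip1r (0.879). Without the 2 farthest families r was 0.840 for Usp48, 0.678 for Polr2j and 0.629 for Hip1r. Hip1r itself showed no spread over the families beyond counting error. Socs3 was most like Sla2 (0.836), Fxyd5 (0.829) and Krtcap2 (0.810), but without the 2 farthest families r was 0.308 for Sla2 and -0.0119 for Fxyd5, so those values rest on 2 families. Jak3, Stat5a, Stat5b and Cish held between 8 and 427 UMIs over the families, too few for a pattern to be read. Their highest r were still 0.888, 0.882, 0.797 and 0.855, so values of this size were also reached with few UMIs. The 12 points of each r share 1 library.

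Cells were next grouped by markers of state, taking those with UMIs of at least 2 genes of a list. Effector markers, such as the granzyme genes Gzma and Gzmb and the chemokine genes Ccl3 and Ccl4, set apart 388 cells, with a median of 2243 UMIs against 1910 in the other 9950 cells. Another 1290 cells had exactly 1 of these markers and count among the others, and 240 of the 388 had exactly 2. Cish was the only one of the 9 genes called, against 12.4% of all genes tested. Its level was 10.8 CPM in effector-marker cells and 1.83 CPM in other cells (5.91, 2.73 to 11.8).

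This difference in Cish rested on 11 UMIs in 10 of 388 cells (2.58%) and on 39 UMIs in 32 of 9950 other cells (0.322%). By depth bin from shallow to deep the effector-marker cells held 0, 2, 5 and 4 of these UMIs and the other cells 9, 6, 12 and 12, and the level was higher in effector-marker cells in the 3 deeper bins. With at least 3 markers it was 8.84-fold higher in 148 cells.

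Jak1 was lower in the same cells, just short of the fold limit. It stood at 647 CPM in effector-marker cells and 925 CPM in other cells (0.699, 0.646 to 0.756), and was called, at 0.657, when 3 markers were required. Since Jak1 falls with depth, the depth bins were compared one by one. From shallow to deep it stood in effector-marker cells at 704 CPM against 1030 CPM in other cells, 606 CPM against 1004 CPM in other cells, 648 CPM against 942 CPM in other cells and 651 CPM against 843 CPM in other cells. The level was thus lower in effector-marker cells within each bin.

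Stat3 was higher in these cells, with 204 CPM against 148 CPM in other cells (1.38, 1.19 to 1.59), and Socs1 was lower with 77.9 CPM against 101 CPM in other cells (0.772, 0.608 to 0.966), both under the fold. The difference in Stat3 was mainly in the deepest bin, with 248 CPM against 154 CPM in other cells. Of the receptors, Il7r stood at 30.6 CPM against 84.8 CPM in other cells (0.360, 0.244 to 0.513), and Il15ra, the alpha chain of the interleukin-15 receptor, at 21.7 CPM against 7.01 CPM in other cells (3.09, 1.88 to 4.86).

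Interferon markers set apart 238 cells, with a median of 2763.5 UMIs against 1906 in other cells. None of the 9 genes was called there, against 5.89% of genes. Socs1 stood at 129 CPM against 98.8 CPM in other cells (1.31, 1.06 to 1.60) and Socs3 at 162 CPM against 216 CPM in other cells (0.747, 0.620 to 0.893). Igtp stood at 272 CPM against 92.9 CPM in other cells (2.93, 2.53 to 3.38). With at least 3 markers, in 65 cells, Socs1 was called at 1.69-fold.

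Markers of recent receptor stimulation set apart 462 cells (median 2752.5 UMIs against 1889 in other cells), and again none of the 9 genes was called, against 7.06% of genes. Jak1 stood at 770 CPM against 922 CPM in other cells (0.835, 0.786 to 0.887) and Socs3 at 180 CPM against 217 CPM in other cells (0.829, 0.730 to 0.938). In the 146 cells with at least 2 B cell markers (median 2567.5 UMIs against 1911 in other cells) Socs3 was the one gene called, lower with 129 CPM against 216 CPM in other cells (0.598, 0.452 to 0.776), where 7.18% of genes were called. Socs3 was under its level in other cells in each of the 4 groups, all of which are deeper than the rest, and the part of depth was not tested.

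**Figure D5:**
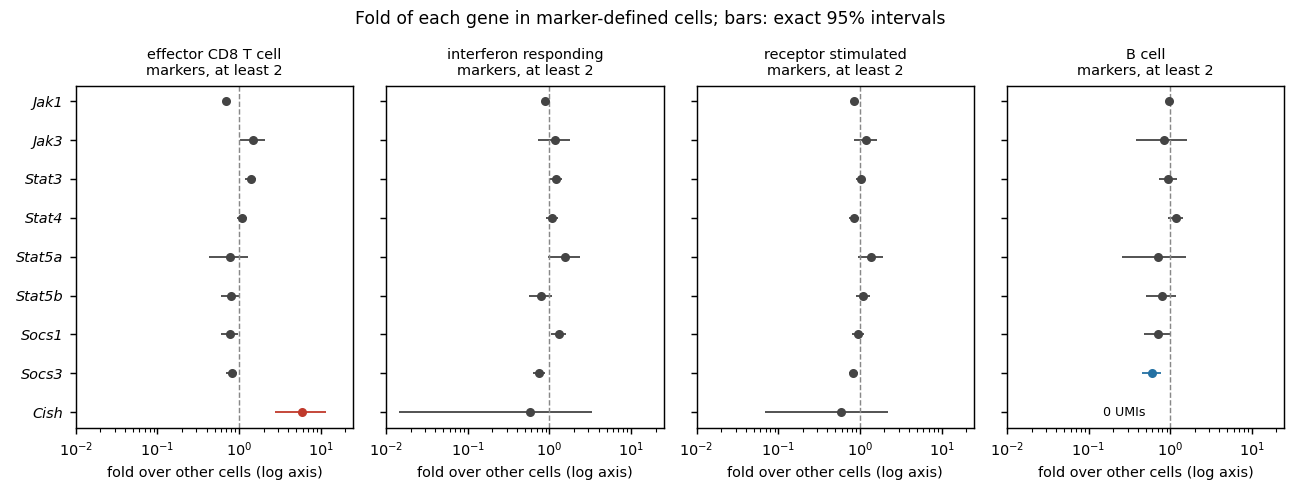
Ratio of the level in marker-defined cells over other cells (horizontal axes, log) for each of the 9 genes, with exact 95% intervals, in 1 panel for each list of markers. Cish in effector-marker cells (5.91, red) and Socs3 in cells with B cell markers (0.598, blue) are the 2 calls.

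In single cells, no joint pattern between 2 of the 9 genes was seen beyond counting error, but only the denser pairs bear on this. In cells thinned to 1000 UMIs, the number of cells with UMIs of both genes was set against the number that the 2 shares alone give, for all 36 pairs. No pair had an interval above 1 or below 1, and the ratios of the 16 pairs with at least 50 cells lay between 0.937 and 1.12. Intervals of the sparser pairs can be wide, such as 0.905 to 4.64 around 2.25 for Stat4 and Cish, so those pairs are not decided. At 1000 UMIs a cell, a smaller joint pattern was not detectable.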

How the data were processed

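The authors deposited raw counts, as UMIs per gene and cell barcode, for 1 RNA library, and a table of assembled receptor contigs with counts of UMIs and reads for each. Tools named, without their role, in the submitters' processing notes are featureCounts 2.0.1, STAR 2.6.1a and cutadapt 1.17, and the genome build is GRCm38. Which program assembled the receptor contigs is not given in the sources used. Of 10387 barcodes, 49 were left out, 4 with under 200 genes and 47 with 20% or more mitochondrial UMIs (some met both). No doublet caller was run, so doublets are treated as present. An alternative keeps the 247 cells with more than 1 productive TRB, which the families otherwise leave out.

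Of 5479 barcodes in the receptor table, 4586 were among the kept cells. Counts were summed per group, divided by the group's total and given per 1000000, with exact Poisson intervals; ratios have exact conditional intervals and shares have Clopper-Pearson intervals, all at 95% and for counting error only. A side with 0 UMIs was counted as 3 UMIs for a call. Thinning drew 1000 UMIs from each of 9456 cells. The scripts were tested on simulated data. Python 3.11.15, numpy 2.4.6, scipy 1.17.1, pandas 2.3.3 and matplotlib 3.10.9 were used.

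The 9 genes and the pathway and marker lists were chosen with earlier results of these data known. The text names those genes, genes of the pathway lists, and for Jak1, Stat3, Stat4, Socs1 and Socs3 the 3 genes of highest r over families. The other pathway genes given with values were picked from the lists after their values were seen. Some genes of the lists are not reported here. Of the pathway lists, Il3, Il9, Il27, Csf2, Tceb1 and Tceb2 had no row in the matrix. Of the marker lists used here, Ifi44 of the interferon markers had none. Alternatives changed the TRB rule, the depth, the denominator, the fold, the marker number and the cells kept.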

Additional observations from a re-analysis of the deposited data

How the results depend on the processing

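No paired analysis was possible because each kind of library was made once. The 7 called gene-family pairs became 2 after each cell was thinned to 1000 UMIs (Socs3 in family 10 and, not called before, Stat5a in family 8, 3.20), 17 at the lower fold limit tried and 2 at a fold of 2. They were between 6 and 9 with the TRB of most UMIs, TRB by amino acid sequence, a denominator without ribosomal, mitochondrial, Gm42418 and Malat1 UMIs, equal weight of families, without the largest family, without cells of 2 or more B cell markers and at under 10% mitochondrial UMIs. The calls lost after thinning had ratios of 0.274 (Stat5a, family 3), 0.682 (Socs3, family 6), 1.71 and 1.63 (Socs1, families 7 and 11), 0.623 and 1.29 (Stat4, families 9 and 12). Without the largest family, Stat5a in family 3 (0.335 against 0.308) and Socs3 in family 6 (0.706 against 0.662) were no longer called, and Socs3 in family 3 (1.57) and Stat5b in family 5 (1.54) were. In effector-marker cells, 1 of the 9 genes was called with 2 markers and 4 with 3 (Jak1 0.657, Stat3 1.53, Stat5b 0.607, Cish 8.84). After markers were counted in thinned cells it was 1, Stat5a at 0.255, where Cish had too few UMIs to be tested. In interferon-marker cells 1 gene, Socs1, was called with 3 markers (1.69) and 1, again Socs1, in thinned cells (2.23), against 0 with 2 markers. In receptor-stimulated cells 1 was called with 3 markers, Stat4 at 0.580, against 0. No result changed direction. The cause of these changes was not tested. The alternatives without B cell marker cells, at 10% mitochondrial UMIs, by amino acid sequence and without the cell of most UMIs were chosen after seeing the data. Depth limits the sparse genes most: Cish had 16 UMIs in the single-TRB cells, and the 3-UMI floor of a family lay between 1.55 and 32.7 CPM.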

Other observations

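Effector-marker cells, in which Cish was called higher, also stood apart in other genes of the pathway lists. Myc, a transcription factor gene tied to STAT5, stood at 60.1 CPM in effector-marker cells against 94.5 CPM in other cells (0.636, 0.485 to 0.821), and Pim1, a kinase gene tied to STAT5, at 68.0 CPM against 42.4 CPM in other cells (1.60, 1.24 to 2.05). Bcl6, a repressor of effector programmes, stood at 13.8 CPM against 41.3 CPM in other cells (0.334, 0.182 to 0.563), and Prdm1, which encodes the effector factor BLIMP1, at 61.1 CPM against 17.4 CPM in other cells (3.52, 2.65 to 4.62). Il18r1, a receptor chain gene tied to STAT4, stood at 59.1 CPM against 16.4 CPM in other cells (3.60, 2.69 to 4.75). These genes are not among the markers that chose the cells, and 12.4% of all genes tested were called in this comparison.

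Families 3 and 11, chosen after their values were seen, each stood apart in more than 1 gene of the pathway lists. Family 3 had the lowest Jak1 (669 CPM), the highest Irf1 (385 CPM) and Il7r at 14.0 CPM against 77.1 CPM in other single-TRB cells. Its lower call of Stat5a rested on 3 UMIs, the floor, and was not made after thinning or without the largest family. Family 11, with Socs1 called higher, had no UMI of Maf or Pim1, both called lower, and none of Jak3, which was not called. Maf in family 11 was thus at 0 CPM against 65.8 CPM in other single-TRB cells, at a floor of 19.97 CPM. The median family level of Maf was 31.3 CPM, and family 1 stood at 183 CPM. Maf was called lower in 6 families and Il7r in 4, so low Maf is not particular to family 11, nor low Il7r to family 3.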
